A study of Oryza sativa with 8 samples.

Results

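The interiors of long A compartments were described in seedlings of a Japonica rice cultivar, Nipponbare (Nip), and an Indica cultivar, 93-11. In each cultivar, runs of at least 10 adjacent 50-kb bins were selected whose first principal component (PC1) of the Hi-C contact matrix was above 0 in both libraries of the normal condition. A bin without a score, or with PC1 of opposite sign in the replicates, ended a run, and the first and last bin of each run were left out. This gave 2479 of 7468 bins in Nip, which is 124 Mb in 76 runs, and 2608 of 7763 bins in 93-11, which is 130 Mb in 93 runs. The members were therefore defined by their PC1 in the normal libraries, and these values are given below as a description without a test.

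Hi-C counts how often pairs of genomic sites are ligated together after cross-linking. At the megabase scale, plant and animal chromosomes separate into an A compartment, in general gene-rich and active, and a B compartment, in general gene-poor and rich in transposable elements. The sign of PC1 assigns each bin to A (above 0) or B (at or below 0). At a finer scale, topologically associating domains (TADs) are stretches whose sites contact each other more often than sites beyond their boundaries.

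The series held 8 Hi-C libraries, 2 replicates each of Nip normal, Nip HS, 93-11 normal and 93-11 HS. All came from shoots of seedlings 3 weeks old, which mix all aerial cell types, with chromatin cut by Dpn II. The plants were raised in Yoshida solution under short days at 800 μmol m-2 s-1. HS (heat stress) seedlings were kept at 45 °C for 36 h at a relative humidity above 80% and a light intensity of 60–80 μmol m-2 s-1. The sources do not say whether normal seedlings went through the same humidity and dim light, so HS stands for the whole treatment and heat alone cannot be told apart from the rest of it. No genotype other than the cultivars was used. PC1 was a unit-length vector on each chromosome: its squares summed to between 0.999 and 1.00 per chromosome and library in both cultivars. A level on a short chromosome is therefore larger by construction, and a rise of some bins is offset by a fall in size elsewhere on the same chromosome. "Scaled PC1" is PC1 divided by the root mean square of its chromosome, so that 1 is the typical size of PC1 there.

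The interiors held most of the A compartment. They made up 71.6% of the 3460 Nip bins and 74.2% of the 3515 93-11 bins that were A in both normal libraries. The remainder were the end bins of the long runs (152 and 186) and bins of shorter runs (829 and 721). The runs were 22 bins long at the median in Nip (1.10 Mb, range 10 to 129 bins) and 19 bins in 93-11 (0.950 Mb, range 10 to 148). In Nip, 80 of 152 run ends lay at an unscored bin, 51 at a bin that was B in both normal libraries and 21 at a bin on which the normal replicates disagreed. In 93-11, these ends numbered 60, 98 and 28 of 186. Many runs thus stopped at a gap in the scores, and a run is a continuous scored stretch and not always a whole compartment.

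The 5 longest runs of each cultivar carried 22.2% and 20.2% of the interior bins. In Nip they were chr1:1500001-7950000 (129 bins), chr4:22850001-29000000 (123 bins), chr9:14500001-20350000 (117 bins), chr1:27850001-33300000 (109 bins) and chr12:200001-4300000 (82 bins). In 93-11 they were chr3:500001-7900000 (148 bins), chr9:15300001-20800000 (110 bins), chr8:24250001-29050000 (96 bins), chr5:25700001-30300000 (92 bins) and chr3:34000001-38600000 (92 bins). Coordinates are those of the deposited files, in which each cultivar has its own chromosome lengths. The genome builds are not given in the sources used here, so no gene names or sequences are attached to these positions. At the threshold of length, 7 Nip runs and 12 93-11 runs had exactly 10 bins, with a mean normal PC1 of 0.0419 and 0.0390. The 8 Nip and 4 93-11 runs of 9 bins, just too short, had a mean normal PC1 of 0.0359 and 0.0352. These means pool chromosomes on which raw PC1 differs in size.

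The interiors lay on the chromosome arms and were rare in the middle of the chromosomes. Their median distance to the nearer chromosome end was 4.60 Mb in Nip and 4.35 Mb in 93-11, against 7.75 and 8.05 Mb for all bins and 12.0 and 12.3 Mb for the interiors of long B compartments, built the same way from bins at or below 0. When each chromosome was divided into 10 equal segments, 66.5% of Nip bins and 76.1% of 93-11 bins of segment 10 belonged to the interiors, but 0 of 745 and 0 of 775 bins of segment 5. Segment 1 held 43.8% and 49.9%. Among chromosomes, the share of bins in the interiors ran from 13.9% on chromosome 11 to 44.8% on chromosome 3 in Nip, and from 19.0% on chromosome 12 to 45.3% on chromosome 1 in 93-11. Chromosome 11 differed most in its makeup between the cultivars, with 80 interior bins in 4 runs in Nip and 160 in 13 runs in 93-11.

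**Figure D1:**
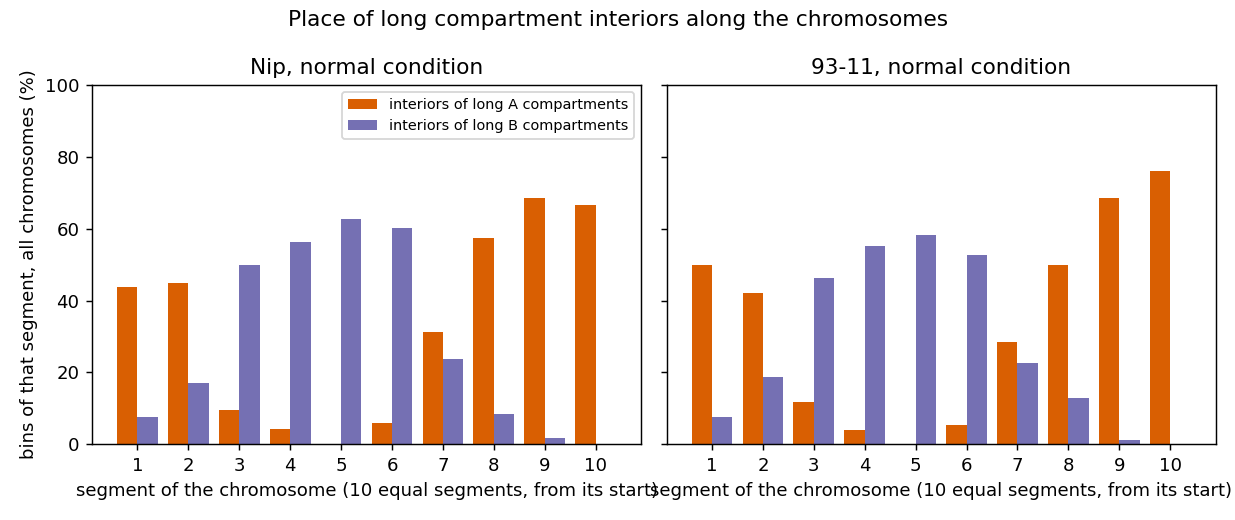
Share of bins (y axis, %) that lay in the interiors of long A (orange) and long B (purple) compartments in each of 10 equal segments of the chromosomes (x axis, from the chromosome start), summed over all 12 chromosomes of Nip (left) and 93-11 (right). The A interiors fall to 0% in segment 5 and reach 66.5% and 76.1% in segment 10, while the B interiors show the reverse course.

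The interiors were dense in genes. A Nip interior bin held 7.12 ± 2.36 genes (SD between bins, n = 2479) and a 93-11 interior bin 7.27 ± 2.42 (n = 2608), against 5.50 and 5.23 for all bins and 4.17 and 3.94 for the interiors of long B compartments. With 33.2% and 33.6% of the bins, the interiors carried 43.0% and 46.7% of all genes counted in the files. Bins with 2 or fewer genes were 1.37% of the interior in Nip and 1.42% in 93-11, against 14.7% and 19.5% of all bins. Bins with 10 or more genes were 15.2% and 17.8% of the interior, against 7.55% and 7.75% overall. The methods use gene annotation to set the sign of PC1, so a surplus of genes in A is partly built in, and no test was made. Within the interiors, PC1 was slightly higher in bins with more genes: Pearson's r across bins ranged from 0.199 to 0.252 over the 8 libraries. Bins of 1 library share its contact map and neighbours share genes and domains, so this r is a description.

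The runs themselves differed in gene content. The richest Nip run, chr9:21400001-22400000, had 9.17 genes per interior bin, and the poorest, chr6:23600001-24100000, had 4.63. In 93-11, chr11:150001-1000000 had 9.20 and chr11:5900001-6400000 had 4.50. Both poorest runs were at the minimum length of 10 bins. Even these poorest runs were above the mean of the long B interiors.

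PC1 stayed close to its normal level in the interiors under HS. The mean scaled PC1 of the Nip interiors was 1.07 and 1.06 in the normal libraries and 1.06 and 1.06 in the HS libraries, a difference of -0.00560 between the means (2463 bins scored in all 4 libraries). In 93-11 it was 1.06 and 1.06 in the normal and 1.05 and 1.05 in the HS libraries, a difference of -0.00837 (2595 bins). The end bins of the same runs differed more in Nip, from 0.842 ± 0.00559 in normal to 0.737 ± 0.0175 in HS (SD, n = 2 libraries), and from 0.773 ± 0.00186 to 0.764 ± 0.00561 in 93-11. A bins of shorter runs went from 0.719 ± 0.00107 to 0.632 ± 0.00591 in Nip and from 0.725 ± 0.00362 to 0.675 ± 0.00588 in 93-11. All of these bins were chosen for being above 0 in the normal libraries, which alone favours lower values in other libraries, most of all near 0. These differences are therefore given without a test.

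PC1 rose steeply over the first bins of a run and more slowly further in. In Nip normal libraries the scaled PC1 was 0.838 and 0.846 in the end bins, 0.975 and 0.970 in the first interior bin, and 1.10 and 1.10 at 10 to 19 bins from the end. The HS libraries of Nip were lower than both normal libraries in the end bin and at 1 to 9 bins from it, and higher from 10 bins inwards, where they reached 1.11 and 1.11 (10 to 19 bins) and 1.10 and 1.10 (20 bins and more, against 1.08 and 1.08 in normal). In 93-11 the HS values were lower than both normal values at 0 to 9 bins from the end and higher at 10 to 19 bins (1.10 and 1.10 against 1.09 and 1.09), and at 20 bins and more the HS libraries (1.14 and 1.14) overlapped the normal ones (1.14 and 1.13). Gene number did not follow this course, with 6.83 to 7.41 genes per bin over the same distance classes in Nip and 6.98 to 7.45 in 93-11.

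**Figure D2:**
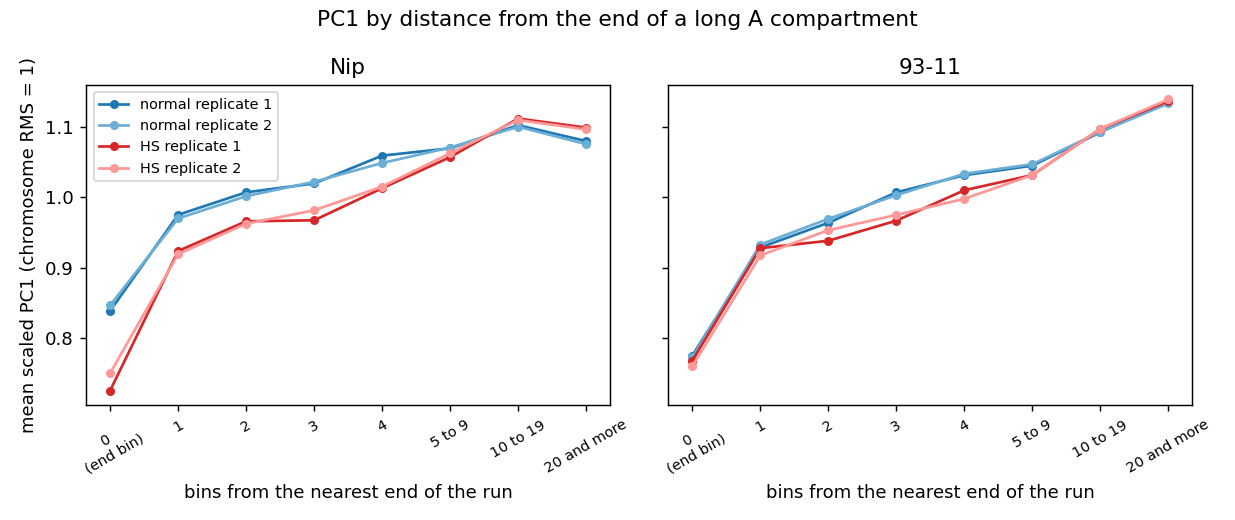
Mean scaled PC1 (y axis, in units of the chromosome's root mean square; the axis does not start at 0) of bins at a given distance from the nearest end of a long A run (x axis, in 50-kb bins), with 1 line for each library. In Nip (left) the HS lines lie below the normal ones near the ends and above them from 10 bins inwards, and in 93-11 (right) the lines nearly meet from 10 bins inwards.

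Bin by bin, the interiors moved in both directions. In Nip, PC1 of both HS libraries was below both normal libraries in 556 interior bins (22.6%; 32.4% of all scored bins) and above them in 1004 (40.8%; 31.9% of all scored bins). In 93-11, 521 bins were lower (20.1%; 29.8% of all) and 881 higher (33.9%; 29.7% of all). The normal libraries of this contrast chose the members, so nothing is read from these shares. The normal replicates of an interior bin differed by 0.001 in PC1 at the median in both cultivars, and the HS replicates by 0.002 in Nip and 0.001 in 93-11. HS minus normal PC1 spread more widely than this, with quartiles at -0.002 and 0.0035 in Nip and -0.0015 and 0.002 in 93-11. The lower tail was long: the lowest bins fell by 0.0665 and 0.067, while the highest rose by 0.0195 and 0.022.

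By chromosome, the mean PC1 of the interiors was lower in both HS libraries than in both normal ones on 6 Nip chromosomes and higher on 5, with 1 overlapping. In 93-11, 7 chromosomes were lower, 4 higher and 1 overlapping. The lowest ratio in Nip was on chromosome 11, where the libraries read 0.0468 and 0.0467 in normal and 0.0440 and 0.0446 in HS. Chromosome 8 followed, with 0.0471 and 0.0473 in normal and 0.0450 and 0.0449 in HS. Chromosome 11 also had the lowest ratio in 93-11, with 0.0426 and 0.0431 in normal and 0.0410 and 0.0415 in HS. Chromosome 10 had the highest ratio in both cultivars, from 0.0554 and 0.0553 to 0.0578 and 0.0573 in Nip and from 0.0512 and 0.0510 to 0.0520 and 0.0519 in 93-11. The groups did not overlap on any of these chromosomes. The ratio of HS to normal lay between 0.949 and 1.04 over all chromosomes of both cultivars. The normal libraries of this contrast chose the interior bins, and no other part of the chromosomes was counted in this way. Nothing is therefore read from the numbers of chromosomes or from their order.

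The run whose PC1 fell furthest in Nip, named here after its values were seen, was chr9:11700001-12350000, a stretch of 13 bins. Its interior read 0.0548 and 0.0553 in normal and 0.0354 and 0.0366 in HS. It remained A in every interior bin of both HS libraries. In 93-11 the run with the largest fall was chr11:3200001-3800000, which read 0.0435 and 0.0435 in normal and 0.0286 and 0.0279 in HS, and which did contain B bins in HS. Over all runs, the change in mean PC1 had a median of 0.000264 in Nip (-0.0190 to 0.00706) and -0.000375 in 93-11 (-0.0153 to 0.00450). In Nip 30 runs were lower without overlap, 33 higher and 13 overlapping, and in 93-11 42, 36 and 15. Of all scored single bins, 32.4% were lower and 31.9% higher in Nip, and 29.8% and 29.7% in 93-11. The normal libraries of this contrast chose the runs, and long B runs were not counted in this way. Nothing is therefore read from the numbers of runs.

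B bins appeared rarely in the interiors under HS. In Nip 17 of 2463 scored interior bins were B in both HS libraries, which is 0.690% (exact Clopper-Pearson 95% interval 0.403 to 1.10%), against 2.12% of all bins that were A in both normal libraries. In 93-11 the number was 11 of 2595, or 0.424% (0.212 to 0.757%), against 1.66% of all such A bins. Neighbouring bins are not independent, so the intervals cover counting error only. Among end bins of the long runs, 10 of 150 in Nip and 3 of 186 in 93-11 became B, and among A bins of shorter runs 46 of 827 and 44 of 720. The interiors, with most of the A bins, thus held 23.3% of the Nip bins and 19.0% of the 93-11 bins that went from A to B. A further 9 Nip and 18 93-11 interior bins were B in 1 HS library alone. The rule used the normal PC1 and the position in a run, and interior bins had a higher normal PC1 than the other A bins, so their smaller share of B bins is a description.

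Most long A compartments had no B bin in their interior under HS. The end bins, some of which became B, are not part of these counts. In Nip 64 of 76 runs had no interior bin that was B in both HS libraries and 60 had none that was B in either. In 93-11 these numbers were 84 and 71 of 93. The longest runs with no interior B bin in any HS library were the 6.15-Mb run on chromosome 4 in Nip and the 7.40-Mb run on chromosome 3 in 93-11. The interiors of long B compartments also switched rarely. There 23 of 2142 scored bins in Nip (1.07%) and 26 of 2127 in 93-11 (1.22%) were A in both HS libraries.

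The 17 Nip bins fell into 14 separate places, of which 8 bins lay on chromosome 8, where 5.10% of the 157 scored interior bins became B. Chromosomes 2, 3, 4, 5 and 10 had 0 such bins of 262, 331, 284, 181 and 124 scored, which allows shares of up to 0.906% on chromosome 3 and 2.42% on chromosome 10. In 93-11 the 11 bins fell into 9 places, with 4 bins on chromosome 11 (of 160) and 3 on chromosome 6 (of 195). Of all 73 Nip bins that went from A to B, interiors included, 15 lay on chromosome 8, 10 on chromosome 10 and 4 on chromosome 5. Of the 58 such bins in 93-11, 13 lay on chromosome 11 and 9 on chromosome 6. The uneven spread was thus not particular to the interiors. Before HS the interior bins that became B already had a lower PC1 than other interior bins: 15 of the 17 and 10 of the 11 were under the lower quartile of the interiors (0.0395 and 0.0390). Their normal values ranged from 0.004 to 0.046 in Nip and from 0.003 to 0.040 in 93-11, and their HS values from -0.036 to 0 and from -0.032 to 0. A bin at exactly 0 was rounded to 3 decimals and counts as B. The quartiles pool all chromosomes, on which raw PC1 differs in size. In scaled PC1 the bins that became B averaged 0.598 and 0.645 in the Nip normal libraries, against 1.07 and 1.06 for the interiors. In the 93-11 normal libraries they averaged 0.445 and 0.527, against 1.06 and 1.06.

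In Nip, 3 stretches of 2 adjacent interior bins were B in both HS libraries. In chr8:22250001-22350000 the first bin went from 0.036 and 0.040 in the normal libraries to -0.036 and -0.021 in HS, the lowest change of all Nip interior bins. The second bin went from 0.027 and 0.025 to -0.011 and -0.032. The bin before this stretch had no score in HS, and a further bin of the same 82-bin run, chr8:22100001-22150000, went from 0.023 and 0.031 to -0.012 and -0.021. This run, chr8:21900001-26000000, held 4 of the 17 bins, the most of any run.

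In chr8:20450001-20550000 the first bin went from 0.034 and 0.026 to -0.006 and -0.018, and the second from 0.028 and 0.028 to -0.020 and -0.010. In chr11:3450001-3550000 the first bin went from 0.030 and 0.033 to -0.009 and -0.011, and the second from 0.026 and 0.036 to -0.010 and -0.019. The bins on both sides of these last stretches remained A, with HS means of 0.0445 and 0.0455 around the former and 0.0495 and 0.029 around the latter. In normal these neighbours had 0.0435 and 0.0435 around the former and 0.051 and 0.0465 around the latter. The stretches were thus 100 kb of B inside an A run with A bins on both sides.

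Outside these stretches, chr12:25350001-25400000 had the lowest HS values in Nip, from 0.013 and 0.013 to -0.026 and -0.034. It was followed by chr8:22100001-22150000 described above and by chr6:3500001-3550000, from 0.010 and 0.006 to -0.010 and -0.012. Next came chr8:18950001-19000000, which had been high, from 0.040 and 0.041 to -0.003 and -0.017. The last of the 6 lowest were chr8:850001-900000, from 0.025 and 0.029 to -0.014 and -0.005, and chr9:14650001-14700000, from 0.011 and 0.008 to -0.010 and -0.009. The normal means of these 6 places thus ranged from 0.008 to 0.0405.

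In 93-11 the stretches were chr6:6850001-6950000 and chr11:3450001-3550000. On chromosome 11 the first bin went from 0.040 and 0.038 to -0.025 and -0.031, the lowest change of all 93-11 interior bins, and the second from 0.028 and 0.027 to -0.010 and -0.030. On chromosome 6 the bins were close to 0 in normal, from 0.008 and 0.010 to -0.027 and -0.022, and from 0.010 and 0.015 to -0.006 and -0.010. The chromosome 11 stretch has the same coordinates as the Nip one, and chr8:20450001-20500000 also appears in both cultivars, but each coordinate belongs to its own cultivar's build and homology was not examined.

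Of the other 93-11 bins, chr11:25450001-25500000 had the lowest HS values, from 0.007 and 0.024 to -0.032 and -0.024. Then came chr6:25450001-25500000, from 0.003 and 0.012 to -0.011 and -0.023, and chr8:20450001-20500000, from 0.026 and 0.034 to -0.014 and -0.016. In chr10:17600001-17650000 the values went from 0.029 and 0.030 to 0 and -0.017, and in chr5:2400001-2450000 from 0.008 and 0.008 to -0.005 and -0.010. The bins chr11:30250001-30300000 (0.039 and 0.036 to -0.001 and -0.002) and chr3:31250001-31300000 (0.005 and 0.006 to -0.001 and -0.002) tied for the sixth place. All 11 bins of 93-11 lay in runs of 10 to 15 bins. In runs of 20 or more bins 0 of 2046 interior bins were B in both HS libraries, which allows a share of up to 0.147%, while Nip had 13 of 2104 (0.618%) there.

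**Figure D3:**
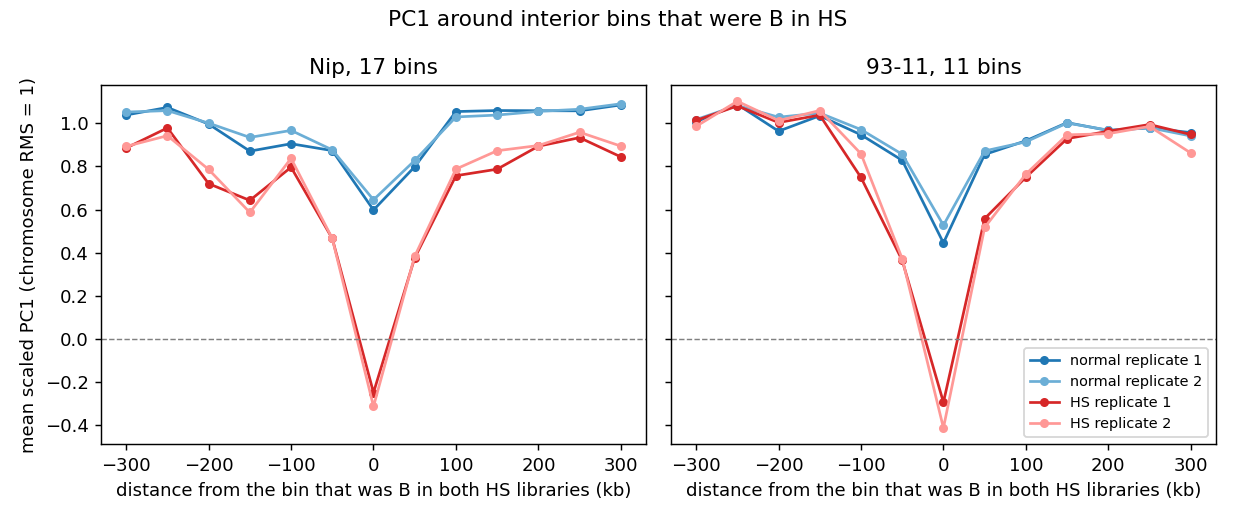
Mean scaled PC1 (y axis, in units of the chromosome's root mean square) around the interior bins that were B in both HS libraries (x axis, distance in kb; bins of the same run), 1 line for each library, in Nip (17 bins, left) and 93-11 (11 bins, right). At the centre the normal libraries dip to 0.598 and 0.645 in Nip and 0.445 and 0.527 in 93-11, while the HS libraries fall below 0. The means of the neighbours stay above 0, though some single neighbours were B in HS.

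The dip was deepest at the bins themselves. At the bins themselves the mean scaled PC1 was 0.598 and 0.645 in the Nip normal and -0.249 and -0.313 in the Nip HS libraries. The bins 50 kb to the left read 0.874 and 0.877 in normal and 0.466 and 0.466 in HS, and those 100 kb to the right 1.05 and 1.03 in normal and 0.757 and 0.788 in HS. At 300 kb to either side, where 11 and 12 bins remain, both HS libraries were still below both normal libraries in Nip (0.886 and 0.893 against 1.04 and 1.05 on the left). In 93-11 the HS libraries were at the normal level at 150 kb on the left, with 1.04 and 1.06 against 1.04 and 1.05 (6 bins). At 150 kb on the right they were still lower, with 0.929 and 0.947 against 1.00 and 1.00 (9 bins). These bins were picked by their HS values, so the dip at 0 kb is not a result. Other picked bins of the same run are among the neighbours, and fewer bins remain in short runs. The reach of the dip was therefore not compared between the cultivars.

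The bins that became B were poor in genes for the interiors. They held 4.24 ± 2.02 genes (SD between bins, n = 17) in Nip and 4.64 ± 2.01 (n = 11) in 93-11, with a median of 4 against 7 in the whole interior. By class, 10 of 311 scored Nip bins with 0 to 4 genes became B (3.22%), 7 of 1775 with 5 to 9 genes (0.394%), and 0 of 377 with 10 or more, which allows a share of up to 0.796%. In 93-11 the counts were 6 of 314 (1.91%), 5 of 1819 (0.275%) and 0 of 462, which allows up to 0.649%. PC1 is given for the same classes as a description, since the normal libraries chose the bins. In Nip, bins with 0 to 4 genes went from a scaled PC1 of 0.975 and 0.979 to 0.922 and 0.930, while bins with 10 or more genes went from 1.12 and 1.11 to 1.14 and 1.13. In 93-11 the former went from 0.956 and 0.953 to 0.920 and 0.915, and the latter from 1.12 and 1.12 to 1.12 and 1.12. Gene-poor interior bins were also lower in normal PC1, and the part of normal PC1 in the counts by gene class was not tested.

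The bins that became B in Nip lay mostly near run ends. In Nip, 16 of the 17 bins lay fewer than 10 bins from a run end, 1 of 621 scored bins lay at 10 to 19 bins (0.161%), and 0 of 658 at 20 and more, which allows up to 0.456%. The Nip bins chr1:7850001-7900000 and chr7:26750001-26800000 adjoined an end bin that was also B in both HS libraries. Those end bins had HS means of -0.0065 and -0.021, so there the B stretch reached the end of the run. In 93-11 all 11 lay fewer than 10 bins from an end, against 0 of 600 at 10 to 19 bins and 0 of 640 beyond, which allow up to 0.500% and 0.469%. These 11 bins were in runs of 10 to 15 bins, where no bin can lie 10 bins from an end. Their distance was thus fixed by run length. The classes at 10 to 19 and at 20 and more held 628 and 663 of the 2479 Nip interior bins. Normal PC1 also rose with distance, and its part in these counts was not tested.

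In the deposited domain tables, TADs, which did not enter the choice of bins, were more numerous and smaller in the interiors of the libraries labelled HS. The condition of each table was taken from its sample's label. The methods name a caller whose domains do not nest, while these domains nest, so the direction holds for these tables and was not examined with another set of TAD calls. A TAD was counted where its midpoint fell in an interior bin, at all levels of nesting. Nip interiors had 24.7 and 24.6 TADs per Mb in the normal libraries and 32.5 and 33.1 in HS, a 1.33-fold rise between means of 24.6 ± 0.0456 and 32.8 ± 0.428 (SD, n = 2). In 93-11 they had 23.3 and 22.5 in normal and 32.4 and 32.4 in HS, a 1.41-fold rise between 22.9 ± 0.602 and 32.4 ± 0.0217. The median TAD was 60 kb in both Nip normal libraries and 40 kb in both HS libraries, and 65 and 45 kb in 93-11. Means fell from 89.0 ± 1.73 to 54.9 ± 0.522 kb in Nip and from 98.1 ± 0.731 to 62.2 ± 0.609 kb in 93-11. The HS and normal libraries did not overlap in any of these measures. An exact two-sided permutation test over the 4 libraries of a cultivar gave p = 0.333 for TADs per Mb and for the median size, the smallest p this design allows. Over both cultivars, with labels exchanged within each, the exact permutation p was 0.0556, again the smallest of 36 relabellings.

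The whole size distribution shifted. The smallest TADs, from 25 to 40 kb, were 30.3% ± 0.801 of Nip interior TADs in normal and 53.8% ± 0.703 in HS (SD, n = 2), and 24.6% ± 0.324 and 47.7% ± 0.0320 in 93-11. TADs of 200 kb or more went from 9.40% ± 0.295 to 1.13% ± 0.119 in Nip and from 11.3% ± 0.554 to 2.34% ± 0.166 in 93-11. Deeply nested TADs, inside at least 3 others, went from 7.89% ± 0.107 to 3.06% ± 0.221 and from 9.36% ± 2.67 to 5.20% ± 1.19, and the 93-11 replicates spread widely here. Outermost TADs covered 97.9% ± 0.208 of the Nip interior in normal and 89.8% ± 0.787 in HS, and 97.9% ± 0.279 and 91.9% ± 0.0461 of the 93-11 interior. In these tables the libraries labelled HS thus had more interior sequence outside any TAD as well as smaller TADs. Over all bins, coverage went from 97.9% to 88.9% in Nip and from 97.8% to 90.9% in 93-11. TADs of 25 to 40 kb went from 25.9% to 51.4% and from 22.3% to 46.1% there. TADs of 200 kb or more went from 13.2% to 2.75% and from 15.9% to 3.72%. These shifts were thus not particular to the interiors.

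The rise in TADs per Mb was not confined to the A interiors. In the interiors of long B compartments TADs per Mb went from 23.2 ± 0.244 to 32.3 ± 1.44 in Nip and from 21.3 ± 0.417 to 30.9 ± 0.371 in 93-11 (SD, n = 2). The median size there went from 75 to 40 kb and from 80 to 45 kb. In normal libraries A interiors therefore had the smaller TADs, and in HS the medians of A and B interiors were equal. The log2 ratio of the A to the B median was -0.32 in both Nip normal libraries and 0 in both HS libraries, and -0.30 and 0 in 93-11. The exact permutation test of this difference between compartments gave p = 0.333 in each cultivar and p = 0.0556 over both, the smallest p possible in each case. Medians move in steps of 5 kb. With mean sizes, A interiors remained smaller than B interiors in HS (54.9 against 62.4 kb in Nip, 62.2 against 67.8 kb in 93-11), and the A to B log2 ratio rose by 0.18 and 0.20.

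**Figure D4:**
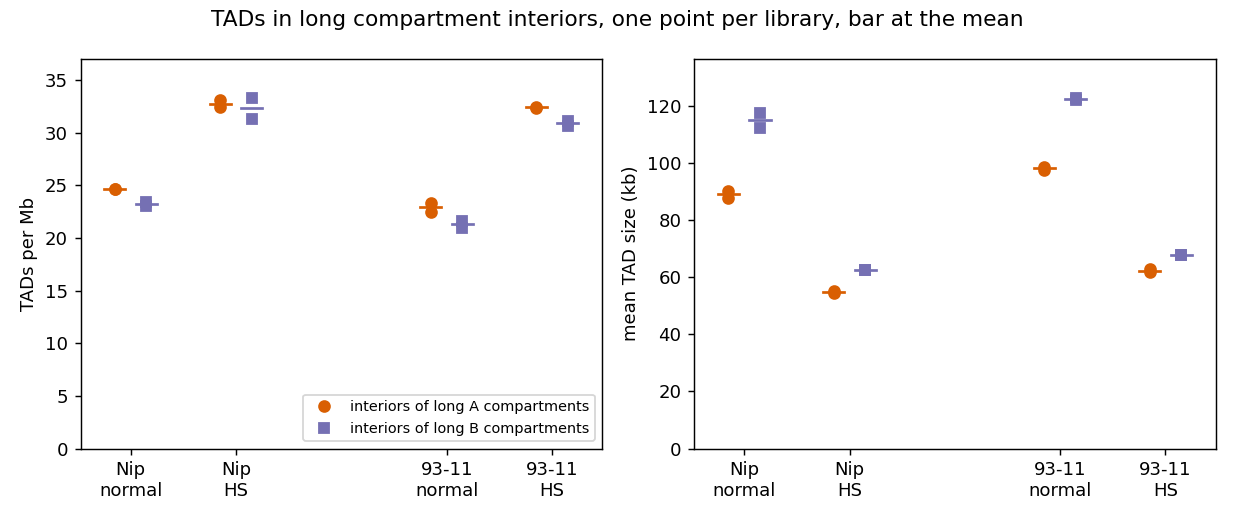
TADs per Mb (left) and mean TAD size in kb (right) in the interiors of long A (orange circles) and long B (purple squares) compartments, 1 point for each library with a bar at the mean of the 2 replicates. In both cultivars every HS library lies above every normal library in number and below it in size, and the distance in size between A and B interiors is smaller in HS.

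Part of the boundary map had a match in HS. Of the 1697 Nip interior boundaries present in both normal libraries (within 5 kb), 60.3% were found in both HS libraries and 10.0% in neither. In 93-11, 46.5% of 1488 were found in both and 15.7% in neither. In the B interiors 51.8% and 38.4% were found in both HS libraries, and over all bins 53.8% and 40.7%. Conversely, 29.1% of the 2231 Nip and 37.6% of the 1892 93-11 boundaries shared by the HS libraries were in neither normal library. Over all bins these shares were 34.7% and 41.7%. Agreement between replicates limits these shares: 71.4% of the boundaries of Nip normal replicate 1 were found in normal replicate 2, and 62.8% of those of HS replicate 1 in HS replicate 2. In 93-11 these shares were 65.7% and 55.5%. A denser map also meets another by position more often, and the share expected by position alone was not estimated. The difference between A and B interiors in kept boundaries was not tested.

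Interior bins with few genes had fewer boundaries than those with more. Nip bins with 0 to 4 genes had 16.6 and 16.3 boundaries per Mb in the normal libraries, and bins with 10 or more genes 20.1 and 20.3. In HS these values were 26.9 and 25.6 against 29.7 and 29.3. In 93-11 the same classes had 15.1 and 13.7 against 17.6 and 19.1 in normal, and 24.6 and 23.6 against 26.6 and 26.3 in HS. The class between, with 5 to 9 genes, had 19.5 and 19.0 in normal and 28.7 and 28.6 in HS in Nip. In 93-11 it had 17.7 and 17.3 in normal and 26.3 and 27.1 in HS, which overlapped the values of the class of 10 or more genes in both conditions. Every gene class had more boundaries in each HS library than in each normal library. The same held for every distance class from the run end.

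Single long A compartments were tested with limma on log2(boundaries per Mb + 1), fitted over all long A and B compartments of a cultivar. In Nip 46 of 76 long A compartments had more boundaries in HS at a Benjamini-Hochberg adjusted p under 0.05, and 0 had fewer, against 61.1% of all 175 long A and B compartments called higher. In 93-11 35 of 93 were higher and 0 lower, against 38.4% of all 198. The A compartments were thus called about as often as all long compartments. At an unadjusted p under 0.05, 54 Nip and 51 93-11 long A compartments differed and 0 of them were lower. The median log2 change was 0.55 in Nip (all compartments 0.60) and 0.61 in 93-11 (all 0.64). In 65 of 76 and 75 of 93 A compartments both HS libraries were above both normal libraries, against 84.6% and 78.3% of all long compartments. These calls rested on every library: without any 1 of them the count in Nip was 0, except for 9 without HS replicate 2, and in 93-11 it was 0 without any of the 4. It was also 0 in both cultivars when each library was centred on its own median, which takes out a rise shared by all long compartments.

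The largest rises that passed the threshold came from runs of 10 to 51 bins. In Nip chr8:3000001-3500000 had 7 and 6 boundaries in the normal and 16 and 13 in the HS libraries over 0.4 Mb of interior, a log2 change of 1.11 ± 0.16 (SE; limma adjusted p = 0.0229). In chr6:3900001-4900000 the boundaries per Mb were 15.6 and 10.0 against 27.8 and 26.7, and in chr9:11700001-12350000, the run with the largest fall in PC1, 12.7 and 16.4 against 25.5 and 34.5. In 93-11 the leading 3 all lay on chromosome 12. There chr12:24600001-25150000 went from 8.89 and 13.3 to 33.3 and 35.6, a log2 change of 1.57 ± 0.23 (SE; limma adjusted p = 0.0309). The run chr12:300001-800000 went from 10.0 and 12.5 to 37.5 and 32.5, and the 51-bin run chr12:1300001-3850000 from 11.0 and 12.2 to 34.7 and 34.3. No long A compartment passed the threshold with fewer boundaries, so no falls are named. A run of 10 bins holds few boundaries, here 4 to 16 per library, which limits its precision.

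**Figure D5:**
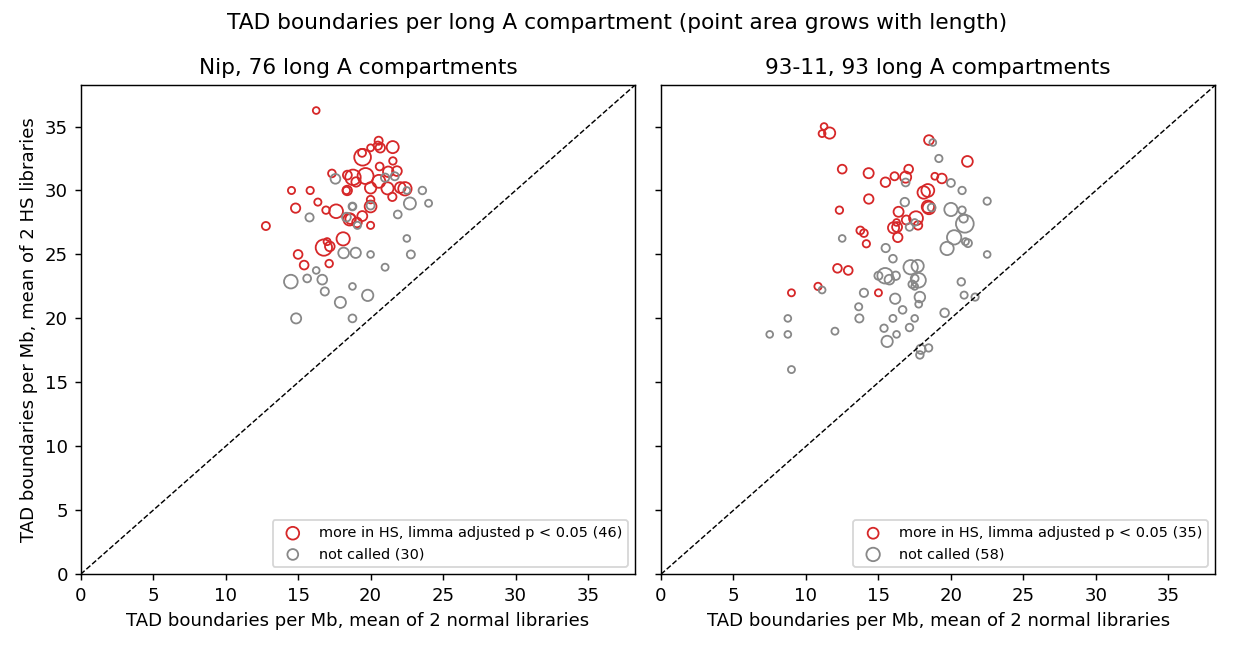
TAD boundaries per Mb in each long A compartment, mean of the 2 HS libraries (y axis) against mean of the 2 normal libraries (x axis), in Nip (76 compartments, left) and 93-11 (93, right). The dashed line marks equal values, larger circles are longer compartments, and red circles are the 46 and 35 compartments with a limma adjusted p under 0.05, all above the line.

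The calls were unevenly spread over the chromosomes. In Nip all 5 long A compartments of chromosome 4 and all 4 of chromosome 9 were called higher, but 0 of 4 on chromosome 10 and 0 of 4 on chromosome 11. In 93-11 all 5 of chromosome 12 were called, and 0 on chromosomes 3 (of 5), 8 (of 5), 9 (of 4) and 10 (of 5). Over all chromosomes, 61.1% of long A and B compartments were called higher in Nip and 38.4% in 93-11. Chromosome 12 of 93-11 stood apart, with 11.9 and 12.9 boundaries per Mb of interior in normal and 32.7 and 34.3 in HS, a 2.70-fold rise, while the other 93-11 chromosomes rose 1.11- to 1.85-fold. In Nip the range over chromosomes was 1.18- to 1.63-fold. Long B compartments were not counted by chromosome, so neither the calls nor the rises by chromosome are read as particular to the A interiors. HS replicates also differed by chromosome. Nip chromosome 11 had 15.8 boundaries per Mb in HS replicate 1 and 25.8 in HS replicate 2, against 16.0 and 17.0 in normal, and 93-11 chromosome 10 had 14.1 and 21.6 against 16.0 and 16.0. On these chromosomes and on chromosome 8 of 93-11 (18.7 and 26.7 against 17.0 and 19.0), the HS and normal libraries overlapped. Compartments of a chromosome share its contact map, which limma takes as separate features. The part of sequencing depth in the TAD values was not tested.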

How the data were processed

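Compartment tables of 8 Hi-C libraries held a PC1 score for each 50-kb bin and the number of genes in it, and TAD tables held nested domains on a 5-kb grid. Per the labels, the authors trimmed reads with cutadapt 1.0 and used BWA and HiC-Pro 2.8.1; per the methods, contact matrices came from HiCExplorer. The deposited PC1 scores are unit-length per chromosome and rounded to 3 decimals. The methods give another bin size for PC1 and a domain caller without nesting, so the tools behind the deposited scores and domains, like the genome builds, are not given in the sources used here. Library depths were not used here. The members, lists and tests were chosen with earlier results of these data known.

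About 5.05% of bins had no score and entered no run. TADs were assigned by midpoint, and boundaries are the distinct starts and ends of TADs at all levels. Libraries were compared with exact permutation tests (scipy 1.17.1). Boundaries per Mb of the interiors of 175 (Nip) and 198 (93-11) long A and B compartments were compared with limma 3.58.1 (lmFit, eBayes, pseudocount 1, Benjamini-Hochberg, threshold 0.05). The step was first run on simulated independent counts, in which most compartments did not change and the rest rose or fell. That setting lacks the rise shared by nearly all real compartments, so it is not used to judge the calls. Regions named were, per cultivar, the 5 longest runs, stretches of 2 or more B bins in HS and otherwise the 6 bins with the lowest HS PC1, the 3 largest significant rises and falls in boundaries, and the runs with most and fewest genes per bin. Alternatives changed the run length, the trimming, the treatment of unscored bins, the centring, the TAD levels, the pseudocount and the libraries used. Replicates are described as biological, and 2 per group limit every test.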

Additional observations from a re-analysis of the deposited data

How the results depend on the processing

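The sizes and numbers of TADs in the interiors, the differences between A and B interiors and the genes per bin kept their direction under every alternative run. In 93-11 the share of interior bins that were B in HS was 0% in runs of 20 or more bins and 0.180% with 3 bins trimmed at each end, and leaving out 1 library moved it between 0.528% and 0.808%. In Nip it lay between 0.852% and 0.947% without 1 library. Leaving out a library loosens the rule that both replicates agree, so the number of interior bins counted as B cannot fall. The limma count of long A compartments with more boundaries was 46 in Nip and 35 in 93-11. It was 0 in both when library values were centred on their median, and in 93-11 it was 0 with outermost boundaries alone, where 45 had an unadjusted p under 0.05. It ranged from 0 to 9 in Nip and was 0 in 93-11 throughout when 1 library was left out, which leaves an arm with a lone library assumed to vary like the other arm. The labels do not tie the replicate numbers to shared material. With the number as a replicate block the count was 0 in both cultivars (unadjusted p under 0.05 in 44 and 47), and the deviations of same-numbered libraries correlated at -0.131 in Nip and 0.135 in 93-11. With the crossed pairing as a block in Nip, chosen after seeing the data, the count was 0. Centring takes out, by construction, a rise shared by all long A and B compartments, so that count concerns departures from the shared rise alone. The cause of the other changes was not tested, beyond the fewer residual degrees of freedom of a fit with a block or a library less. Choosing runs on 1 normal library and taking the level from the other, also added after seeing the data, gave HS minus normal scaled PC1 between -0.00934 and -0.00458.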
